A study of Mus musculus with 34 samples.

Results

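The genes described are those by which cells hold on to the extracellular matrix: integrins, laminins and other matrix glycoproteins, syndecans, and the adaptors of focal adhesions. They were chosen by a rule on gene symbols, set with earlier results of these data known. The rule took numbered alpha integrins and Itgav, numbered beta integrins, numbered laminin chains, syndecans and 18 further named genes, and 45 of the 16576 genes in the culture table met it. MOSJ-Dkk1 cells, a murine osteosarcoma line made to secrete human Dkk-1 from a constitutive cytomegalovirus promoter, were sequenced as 18 cultures in 6 groups of 3. In log phase, cells had grown for 6 days with fresh medium every 2 days, either without morpholino (NT), with 5 µM DkkMo, a vivo morpholino against Dkk-1, or with 5 µM scrMo, its mismatched control. Under nutritional stress, cells with the same 3 treatments had additionally stood confluent for 48 h, with 4 days without new medium. All 6 groups carry the human Dkk-1 transgene, every culture is of 1 modified line, and the labels do not say whether replicates came from separate platings, so p values measure the spread between libraries only. The labels give the 5 µM dose, whereas a figure legend of the study names another one. The 16 tumours of the series were not used here.

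Integrins are pairs of an alpha and a beta chain that span the membrane, and the pair decides which matrix protein is bound: collagen, laminin, or proteins with the RGD tripeptide such as fibronectin. Laminins are trimers of an alpha, a beta and a gamma chain and, with nidogens and perlecan, build the basement membrane. Inside the cell, talins and kindlins activate integrins, while integrin-linked kinase, PINCH and parvin form a trimer that ties them to actin. Paxillin, focal adhesion kinase and tensins gather at the same sites. In bone, integrins carry the attachment of osteoblasts, and of osteosarcoma cells, to fibronectin, collagen and osteopontin.

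Each value is a normalised read count, the reads on a gene divided by a size factor for its library. Tests were run on the variance-stabilised log2 values of the same libraries, and a log2 fold change is a difference between group means on that scale. The scale compresses changes of genes with few reads: Itga11 was 0.233 times as high in one group as in another at a log2 fold change of -0.88. DE here means more than 1.5-fold with an adjusted p under 0.05 over all 16562 genes tested, and a gene is written as called or not called by limma on this scale unless limma voom on the read counts is named. Limma voom called further members, some of them with few reads, where the scale compresses changes. Others had more reads. Sdc4 was at -0.62 (adjusted p = 0.000421) with limma voom for scrMo against NT under stress, at group means of 2475 and 3808. Tns1 was at -0.63 (adjusted p = 0.000246) with limma voom for scrMo against NT in log phase. The further calls are given below for some genes and comparisons only. All 45 members were tested, and the filter on low values removed 0 genes. Libraries held 25.9 to 44.8 M reads on the listed genes, and all 18 libraries differed from their replicates by more than sampling noise, with chi-square values per gene of 2.95 or more. The largest values, 24.0 to 33.0, were for log phase scrMo replicate 1 and log phase DkkMo replicate 1 against their 2 partners. Among the members, log phase DkkMo replicate 1 was the lowest of its group for 27 of 45 (39.1% of all genes) and log phase scrMo replicate 2 for 26 (27.4%). Stressed NT replicate 2 was the lowest for 25 (38.4%), log phase NT replicate 3 and stressed scrMo replicate 2 were the highest for 25 each (33.0% and 33.2%), and log phase DkkMo replicate 2 was the highest for 24 (31.7%). The labels name no batch. Of 10 osteoblast lineage markers 8 were in the table. Group means were at least 895 for Runx2, Col1a1, Col1a2, Sparc, Spp1 and Twist1, whereas Alpl and Bglap were at 7.68 to 20.9 and 5.48 to 33.2. Ptprc, which defines leukocytes, was at group means of 4.89 to 15.5, while the macrophage markers of the same list were higher, Cd68 at 399.7 to 1529, Csf1r at 445 to 740.0 and Cd14 at 114 to 275. Pecam1 of endothelium was at 285 to 364 and Krt8 of epithelium at 4.05 to 21.8. These are bulk RNA samples, in which fewer cells of a type and less RNA per cell cannot be told apart.

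Per kilobase of exon, on the normalised count scale, fibronectin (Fn1) was the most abundant member, with a mean over the 6 groups of 12945. Next came Itgb7 at 8072, Itgb1, the common beta chain of collagen, laminin and fibronectin receptors, at 3349, and its fibronectin-binding partner Itga5 at 2784. The range of Fn1 over libraries, 9703 to 20583, overlapped that of Itgb7, 5401 to 14434, and the order of the 2 was reversed in stressed NT cultures, where group means were 10334 and 13935. The order of the next members also differed between groups: Itga5 was above Itgb1 in stressed NT, at 4562 against 3613, and below Sdc4 in log phase NT, at 2455 against 2689.5. Itgb7 pairs with alpha 4 or alpha E in lymphocytes. Itga4 was not in the culture table, and Itgae, which encodes alpha E, was counted 4.86 to 17.9 times per library. At the lower end, Lama4, Lama3, Itga9 and Lama2 averaged 0.447, 0.963, 1.58 and 2.03 per kilobase, and their libraries overlapped one another.

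**Figure D1:**
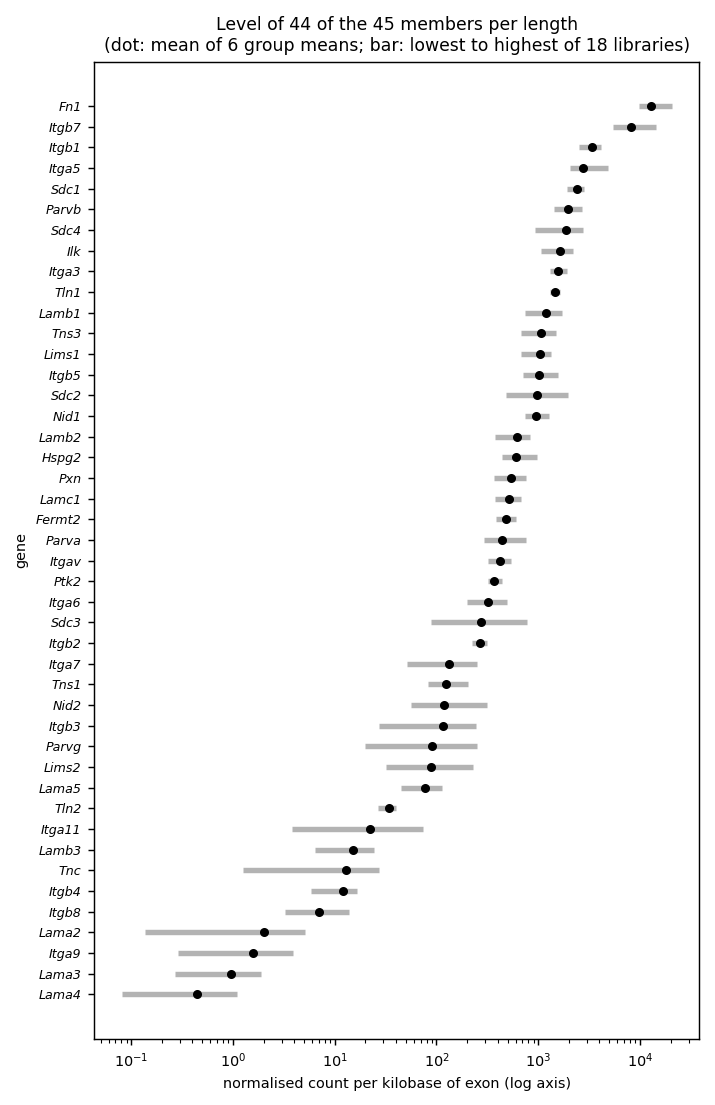
Level of 44 of the 45 members as normalised counts per kilobase of exon on a log axis; dots are the mean of the 6 group means and bars run from the lowest to the highest of 18 libraries. Fn1 and Itgb7 lead at 12945 and 8072, and bars are widest for Itga11, Tnc and Lama2.

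Between treatments 0 to 9 members were called DE, and between stress and log phase 13 to 19. DkkMo against scrMo, with the mismatched morpholino as control, gave 3 members higher and 0 lower in log phase, where 1.66% of all genes were higher and 0.308% lower. The 3 were Nid2, Itga11 and Itgb3. At an unadjusted p under 0.05 in limma 26 members were higher and 3 lower, and limma voom on the read counts called 7 higher and 0 lower. The count was 2 without log phase DkkMo replicate 2 and 7 without log phase DkkMo replicate 1. Under stress 1 was higher, Parvg, and 0 were lower (all genes 0.513% and 0.489%). Of the members, 10 were higher and 3 lower there at an unadjusted p under 0.05, and limma voom on the read counts called 4 higher and 0 lower.

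DkkMo against NT gave 0 members higher and 0 lower in log phase with limma (all genes 0.513% and 0.314%), although 7 were higher and 7 lower at an unadjusted p under 0.05 and limma voom called 3 higher. Without log phase DkkMo replicate 2 the count was 1. Under stress, 1 was higher and 7 were lower (all genes 1.12% and 1.54%). Limma voom called 5 higher and 7 lower there, and 9 were higher and 18 lower at an unadjusted p under 0.05 in limma. The control morpholino itself gave calls: scrMo against NT had 0 higher and 5 lower in log phase (all genes 0.592% and 1.85%; 8 higher at an unadjusted p under 0.05 in limma and 2 with limma voom), and 1 higher and 8 lower under stress (all genes 1.9% and 2.54%). With quantile normalization the log phase split was 1 higher and 4 lower, with median centring 1 and 5. For scrMo against NT under stress, limma voom called 4 higher and 12 lower. At an unadjusted p under 0.05 in limma, 7 were higher and 20 lower there. These comparisons share the scrMo, NT and DkkMo libraries in pairs, so they are not independent of each other.

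More members were called for nutritional stress against log phase. In NT, 7 were higher and 12 lower (all genes 8.22% and 9.9%), in scrMo 4 and 9 (4.38% and 6.28%), and in DkkMo 2 and 13 (6.24% and 10.2%). The median log2 fold change of the members was -0.11 in NT, -0.17 in scrMo and -0.29 in DkkMo, beside -0.014, -0.0060 and -0.011 over all genes. Centring each library on its median moved the median of all genes to 0.14 in NT and 0.15 in DkkMo. The members' median was then 0.044 in NT, turning its sign, and -0.13 in DkkMo, and the DkkMo split became 5 higher and 9 lower.

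**Figure D2:**
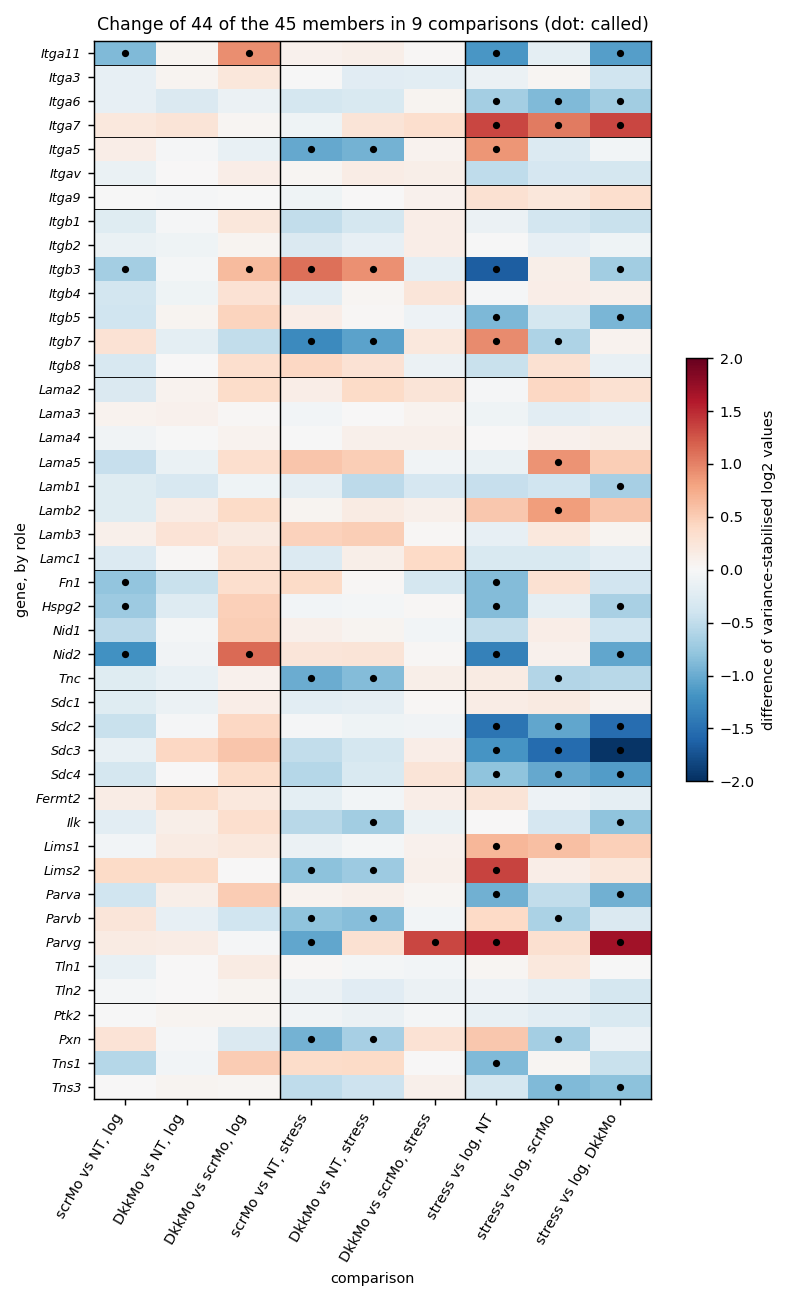
Log2 fold change of 44 of the 45 members (rows, by role) in 9 comparisons (columns), as the difference of group means of variance-stabilised values, from blue (lower in the group named first) to red (higher); black dots mark members called DE. Sdc2, Sdc3 and Sdc4 are blue with dots in all 3 stress columns, and the DkkMo against NT column in log phase has no dot.

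The start sites of 3 members called in 4 of the 9 comparisons are shown for orientation. RefSeq promoters of assembly GRCm38.p6, from 250 bases before to 50 after a start site, were held for 28 of the 45 members, as 35 promoters. Each is printed 5′ to 3′ on the gene's strand with CG dinucleotides in capitals. Itga11 lies at chr9:62677605-62677904 on the plus strand, Itgb7 at chr15:102231886-102232185 on the minus strand, and the first of 2 Parvg starts at chr15:84324470-84324769 on the plus strand.
Itga11: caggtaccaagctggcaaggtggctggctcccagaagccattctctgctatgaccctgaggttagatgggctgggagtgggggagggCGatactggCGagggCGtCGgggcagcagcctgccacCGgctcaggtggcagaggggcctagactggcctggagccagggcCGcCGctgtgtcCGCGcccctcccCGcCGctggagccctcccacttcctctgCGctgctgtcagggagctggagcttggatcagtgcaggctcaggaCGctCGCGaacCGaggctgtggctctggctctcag
Itgb7: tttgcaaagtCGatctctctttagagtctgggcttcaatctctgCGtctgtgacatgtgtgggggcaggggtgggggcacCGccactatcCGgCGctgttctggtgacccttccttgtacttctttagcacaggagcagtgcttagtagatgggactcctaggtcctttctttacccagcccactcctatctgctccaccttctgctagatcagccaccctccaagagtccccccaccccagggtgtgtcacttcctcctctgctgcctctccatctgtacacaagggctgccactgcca
Parvg: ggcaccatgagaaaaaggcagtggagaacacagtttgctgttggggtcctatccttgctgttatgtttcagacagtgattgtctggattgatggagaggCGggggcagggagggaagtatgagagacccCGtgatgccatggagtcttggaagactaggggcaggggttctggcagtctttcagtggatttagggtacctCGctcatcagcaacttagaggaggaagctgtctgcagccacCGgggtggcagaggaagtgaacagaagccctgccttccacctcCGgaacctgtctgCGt
CG dinucleotides numbered 16 in the Itga11 window, 5 in that of Itgb7 and 6 in that of Parvg, beside a median of 16 over the 35 member promoters and 7 over all 32851 promoters. None of the 3 windows held GGAATG (the TEAD element), TGANTCA (AP-1), CACGTG (an E-box) or the SRF CArG box, searched on both strands, with a match counted for each motif also where motifs overlapped. GGAATG was in 3 of the 35 member promoters and 14.7% of all promoters, TGANTCA in 2 and 7.81%, CACGTG in 2 and 7.15%, and the CArG box in 2 (Fermt2 and Lama2) and 1.63%.

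Of the alpha integrins, Itga11 (chromosome 9, 62677826 to 62783982, plus strand, GRCm38), the collagen-binding chain of mesenchymal cells, had group means that were up to 10.1-fold apart. Its counts were 295, 221 and 231 in NT, 78.5, 37.1 and 58.1 in scrMo and 213, 377 and 226 in DkkMo in log phase. Under stress they were 40.2, 19.7 and 20.9 in NT, 33.1, 36.7 and 34 in scrMo and 45.7, 30.6 and 37.3 in DkkMo. In log phase all scrMo libraries lay below all NT and DkkMo libraries, which overlapped each other, and the 9 stressed libraries lay below every log phase NT and DkkMo library. The log2 fold change was -0.88 (SE 0.10, adjusted p = 4.34e-06) for scrMo against NT and 0.94 (SE 0.10, adjusted p = 4.52e-06) for DkkMo against scrMo in log phase. Stress against log phase gave -1.16 (SE 0.10, adjusted p = 7.44e-09) in NT and -1.10 (SE 0.10, adjusted p = 1.85e-08) in DkkMo. In scrMo, where log phase counts were already low, it was -0.19 (SE 0.10, adjusted p = 0.124) and not called.

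Of the 3 laminin-binding alpha integrins, 1 was higher under stress, 1 lower and 1 not called. Itga7, the laminin receptor chain best known from muscle, was counted 412, 479 and 480.3 in NT, 568, 608 and 514 in scrMo and 634, 589.9 and 543 in DkkMo in log phase. Under stress the counts were 1339.8, 1674 and 1603 in NT, 1556, 1394 and 1344 in scrMo and 1739, 1906 and 2017 in DkkMo. Every stressed library lay above every log phase library, and stressed means were 3.37, 2.54 and 3.2 times those of log phase in NT, scrMo and DkkMo. The log2 fold changes were 1.33 (SE 0.074, adjusted p = 1.05e-11), 1.04 (SE 0.074, adjusted p = 9.44e-10) and 1.34 (SE 0.074, adjusted p = 1.48e-11). Itga6, which pairs with beta 1 or beta 4, went the other way, with counts of 3845, 4042 and 4480.2 in NT, 3113, 3563 and 4319 in scrMo and 2942, 3284 and 3805 in DkkMo in log phase. Under stress they were 2651, 2232 and 2501 in NT, 1791, 1905 and 1866 in scrMo and 1901, 1946 and 1968 in DkkMo. All 9 stressed libraries lay below all 9 log phase libraries, and the changes were -0.68 in NT, -0.88 (SE 0.093, adjusted p = 1.85e-07) in scrMo and -0.70 in DkkMo, each called. Itga3, the chain of the alpha 3 beta 1 receptor, had group means of 7492 to 10002 and was called in none of the 9 two-group comparisons.

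Itga5, the alpha chain of the classical fibronectin receptor, was high in stressed NT cultures alone among the 6 groups. Counts were 11102, 12403 and 12823 in NT, 14328, 12293 and 13346 in scrMo and 11950.3, 12319.9 and 11568 in DkkMo in log phase. Stressed counts were 21622, 23958 and 21939.9 in NT, 12394, 10359.6 and 10171 in scrMo and 11458, 11489 and 11694 in DkkMo. The 3 stressed NT libraries lay above all 15 others, whose range was 10171 to 14328. Stressed NT was 1.86 times log phase NT, with a log2 fold change of 0.88 (SE 0.074, adjusted p = 3.96e-09). Under stress the changes were -1.02 (SE 0.074, adjusted p = 4.74e-09) for scrMo against NT and -0.94 (SE 0.074, adjusted p = 2.95e-08) for DkkMo against NT, while DkkMo and scrMo differed by 0.077 (95% interval -0.079 to 0.23). Itgav, the RGD-binding chain shared by the vitronectin receptors, had group means of 3636 to 5321 and was not called. Itga9 was counted 2.22 to 6.75 times in log phase and 9.16 to 30.1 times under stress, so that the groups did not overlap. Its log2 fold change in NT was 0.30 (SE 0.055, adjusted p = 7.69e-05), short of the fold threshold, and 2.20 (adjusted p = 9.79e-05) with limma voom on the reads.

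**Figure D3:**
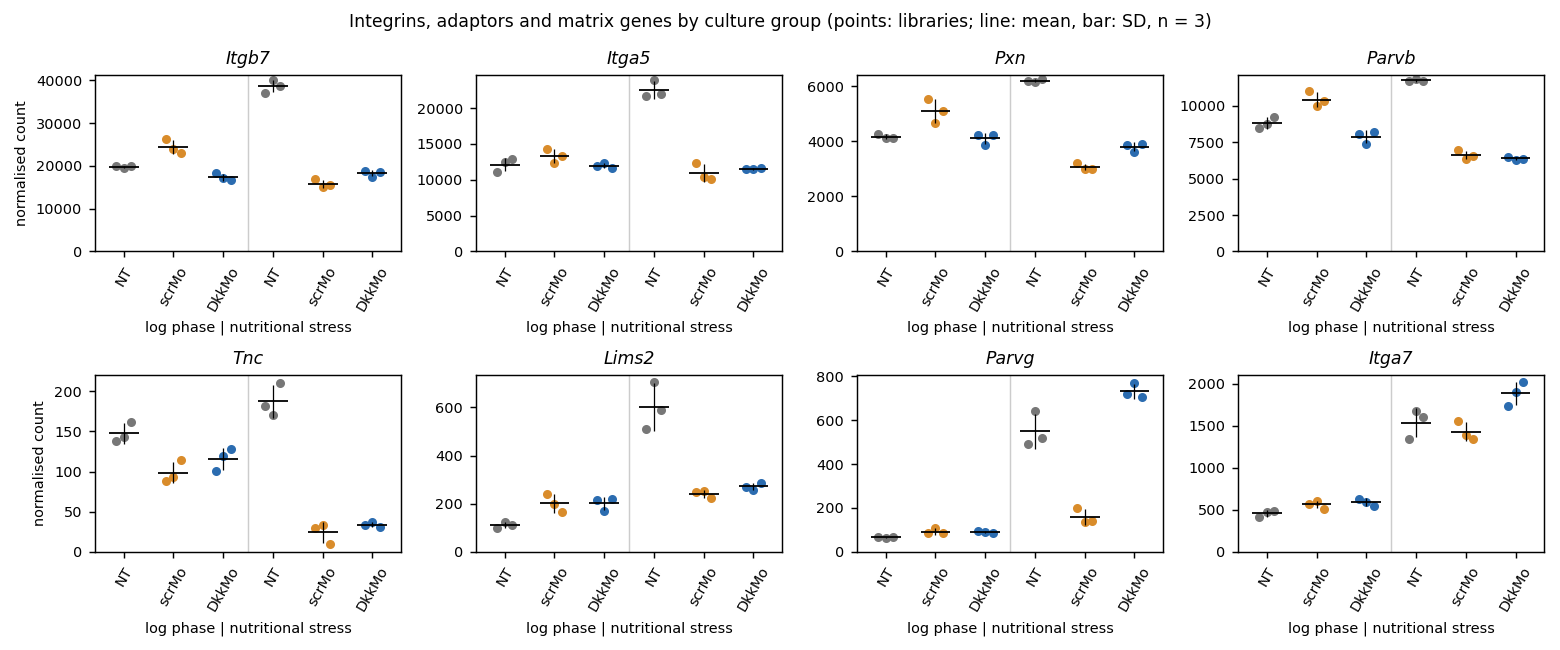
Normalised counts of 8 members (one panel each, axis from 0) in the 6 culture groups; points are libraries, horizontal lines group means and vertical bars SD (n = 3). Stressed NT libraries stand above all others for Itgb7, Itga5, Pxn, Parvb, Tnc and Lims2, Parvg is high in stressed NT and DkkMo but not in stressed scrMo, and Itga7 is higher under stress in all 3 treatments.

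Among the beta integrins, Itgb3, the beta chain of the vitronectin and osteopontin receptor, was called in 6 of the 9 comparisons, the most of any member with limma. Counts were 1032, 1042 and 1119 in NT, 611, 474 and 644 in scrMo and 774, 1433 and 965 in DkkMo in log phase. Counts under stress were 162, 183 and 209.6 in NT, 574, 685 and 677 in scrMo and 578, 525 and 524 in DkkMo. Stressed NT was the lowest group, with all its libraries below the other 15, and log phase scrMo lay below log phase NT and DkkMo. In NT the stressed level was 0.174 times that of log phase, at -1.65 (SE 0.12, adjusted p = 4.69e-10), and in DkkMo the change was -0.69 (SE 0.12, adjusted p = 4.98e-05). In scrMo it was 0.12 (adjusted p = 0.407) and not called. Against stressed NT, stressed scrMo was higher by 1.10 (SE 0.12, adjusted p = 7.15e-07) and stressed DkkMo by 0.92 (SE 0.12, adjusted p = 8.79e-06). In log phase, scrMo against NT was at -0.67 (SE 0.12, adjusted p = 0.00038) and DkkMo against scrMo at 0.64 (SE 0.12, adjusted p = 0.000749). These log phase calls rested on single libraries and on the scaling: DkkMo against scrMo was 0.44 without log phase DkkMo replicate 2 and 0.54 without log phase scrMo replicate 2, scrMo against NT was -0.58 without the latter, and DkkMo against scrMo was 0.57 with median centring, all below the fold threshold.

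Itgb7 (chromosome 15, 102215995 to 102231944, minus strand) had counts of 19886, 19569 and 20041 in NT, 26307, 23859 and 23018 in scrMo and 18287, 17060.2 and 16621 in DkkMo in log phase. Under stress they were 37062, 39982 and 38758 in NT, 16877, 14962 and 15442 in scrMo and 18786, 17440.4 and 18535 in DkkMo. In log phase the 3 treatments did not overlap, with scrMo highest, and under stress the order was turned, with NT highest and scrMo lowest. Stressed NT was 1.95 times log phase NT, at 0.95 (SE 0.063, adjusted p = 1.1e-10). Stress gave -0.62 (SE 0.063, adjusted p = 8.98e-08) in scrMo and 0.075 (95% interval -0.056 to 0.21) in DkkMo. Under stress scrMo was at -1.28 (SE 0.063, adjusted p = 2.71e-11) and DkkMo at -1.07 (SE 0.063, adjusted p = 7.28e-10) relative to NT. The 5 other beta chains were not called between treatments by limma, whereas limma voom called Itgb4 and Itgb8 in 4 treatment comparisons each. Itgb1 had group means of 10416 to 15989 and Itgb2, the beta chain of leukocyte integrins, 690.0 to 915, with no call. Itgb5, a second partner of alpha v, had group means of 2557 to 5194 and was called lower under stress in NT (-0.89) and DkkMo (-0.92). Itgb4, the hemidesmosome chain, was counted 41.1 to 52 times in log phase scrMo and 95.9 to 117 in log phase NT. The difference was -0.37 (SE 0.052, adjusted p = 3.58e-05), short of the fold threshold, and -1.12 (adjusted p = 4.8e-05) with limma voom. Itgb8 had group means of 37.8 to 105 and was called by limma in no comparison and by limma voom in 6 of 9, among them stress in NT, at -1.41 (adjusted p = 7.9e-05), scrMo against NT in log phase, at -0.99 (adjusted p = 0.00524), and scrMo against NT under stress, at 1.34 (adjusted p = 0.00044). Itgb4 was called by limma voom also for DkkMo against scrMo, where log phase gave 0.89 (adjusted p = 0.000891) and stress 0.71 (adjusted p = 0.00248).

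Among the laminin chains, Lama5, a basement membrane alpha chain, was counted 798, 822 and 924 in NT, 509.7, 523 and 606 in scrMo and 635, 876 and 764 in DkkMo in log phase. Stressed counts were 742, 713 and 801 in NT, 1206, 1278 and 1209 in scrMo and 1125, 1182 and 1178 in DkkMo. Stressed scrMo and DkkMo libraries lay above all other 12, and stress gave 0.89 (SE 0.072, adjusted p = 4.49e-09) in scrMo, 0.49 (SE 0.072, adjusted p = 7.19e-06) in DkkMo and -0.13 (95% interval -0.28 to 0.020) in NT. Limma called the scrMo change, and limma voom also that in DkkMo, at 0.62 (adjusted p = 7.95e-06). Lamb2 was counted 2883, 2965 and 2982 in NT, 2543, 2283 and 2552 in scrMo and 3106, 3855 and 2965 in DkkMo in log phase. Under stress the counts were 4237, 4389 and 4592 in NT, 4350.0, 4848 and 4559 in scrMo and 5051, 4732 and 5054 in DkkMo. All stressed libraries lay above all log phase libraries, with changes of 0.54 in NT, 0.83 (SE 0.071, adjusted p = 1.13e-08) in scrMo and 0.55 in DkkMo, of which the scrMo change passed the fold threshold with limma and that in DkkMo also with limma voom, at 0.59 (adjusted p = 1.84e-06).

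Of the other chains, Lamb3 had group means of 51.7 to 134, and its stressed NT libraries, 42.5 to 65.4, lay below those of both morpholinos, with limma voom at 1.31 (adjusted p = 4.99e-05) for scrMo and 1.37 (adjusted p = 4.44e-05) for DkkMo against NT and no call by limma. Lamc1, the gamma chain of most laminins, had group means of 3231 to 5102 and no call. Lamb1 had group means of 7817 to 15676 and was called lower under stress in DkkMo only (-0.66), although values were lower in NT and scrMo too, at -0.46 (adjusted p = 1.44e-05) and -0.40 (adjusted p = 9.7e-05). Lama2, the muscle and nerve alpha chain, was counted 2.25 to 10.2 times in log phase scrMo, 26.3 to 26.6 in log phase NT and 61.9 to 82.7 in stressed DkkMo. Limma called Lama2 in no comparison, and limma voom called scrMo against NT in log phase at -1.95 (adjusted p = 0.000963) and DkkMo against scrMo, where log phase gave 2.24 (adjusted p = 0.000358) and stress 0.89 (adjusted p = 0.0106). Limma voom also called Lama2 higher under stress in scrMo, at 2.43 (adjusted p = 2.25e-05), and DkkMo, at 1.08 (adjusted p = 0.000657). For DkkMo against NT under stress it gave 1.48 (adjusted p = 0.000147). Lama3 had group means of 11.1 to 16.9 in log phase and 4.74 to 7.33 under stress, which limma voom called lower in scrMo, at -1.73 (adjusted p = 0.00101), and DkkMo, at -1.21 (adjusted p = 0.00687), and limma did not call. Lama4 had group means of 2.4 to 9.88.

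Of the 5 members called lower with scrMo than in NT in log phase, 3 were matrix glycoproteins (Nid2, Fn1 and Hspg2). Nid2, which links laminin to collagen IV, was counted 1174, 1117 and 1100.0 in NT, 348, 375 and 337 in scrMo and 888, 1636 and 815 in DkkMo in log phase. Under stress the counts were 303, 291 and 292 in NT, 368, 432 and 363 in scrMo and 422, 385 and 382 in DkkMo. Log phase scrMo lay below log phase NT and DkkMo and in the range of the stressed libraries. DkkMo was 3.15 times scrMo in log phase, at 1.14 (SE 0.13, adjusted p = 6.82e-06), and scrMo was 0.312 times NT, at -1.20 (SE 0.13, adjusted p = 1.63e-06). Stress gave -1.36 (SE 0.13, adjusted p = 2.16e-08) in NT, -1.03 (SE 0.13, adjusted p = 9.59e-07) in DkkMo and 0.083 (95% interval -0.19 to 0.35) in scrMo. Its relative Nid1 was 5113 to 6381 in log phase scrMo and 7012 to 8862 in log phase NT, with a change of -0.52 (SE 0.10, adjusted p = 0.000696), short of the fold threshold.

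Fn1, which forms fibrils that cells bind through alpha 5 beta 1, was counted 206710.0, 211652 and 240508 in NT, 126806, 117872 and 134933 in scrMo and 140759, 170975 and 170735 in DkkMo in log phase. Stressed counts were 123973, 113374 and 124916 in NT, 148003, 163845 and 159284 in scrMo and 117294, 124652 and 126449 in DkkMo. Log phase NT lay above every other group, and in log phase the 3 treatments did not overlap. The change was -0.79 (SE 0.093, adjusted p = 5.1e-06) for scrMo against NT in log phase and -0.86 (SE 0.093, adjusted p = 1.31e-07) for stress in NT. With quantile normalization the former was -0.56, short of the fold threshold. DkkMo against NT in log phase was -0.45 (SE 0.093, adjusted p = 0.0038), also short of it. Hspg2, the basement membrane proteoglycan perlecan, was counted 11938, 12814 and 14009 in NT, 7852, 7181 and 7913 in scrMo and 8613, 13336 and 10775 in DkkMo in log phase. With stress, counts were 6727, 6583 and 7429.9 in NT, 6386, 6931 and 6579 in scrMo and 6278, 6442 and 7496 in DkkMo. Log phase scrMo lay below log phase NT and DkkMo, at -0.73 (SE 0.11, adjusted p = 5.51e-05) against NT, and levels were lower under stress in NT (-0.87) and DkkMo (-0.65), each called.

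Tnc, the tenascin of remodelling and tumour matrix, was highest in stressed NT and lowest in the stressed morpholino groups. Its counts were 138, 143 and 162 in NT, 88.7, 93.4 and 114 in scrMo and 101, 119 and 128 in DkkMo in log phase. Under stress they were 182, 171 and 211 in NT, 29.3, 33 and 9.72 in scrMo and 33.5, 36.8 and 30.3 in DkkMo. Both stressed morpholino groups lay below all other libraries, at 0.128 times NT for scrMo and 0.178 times for DkkMo. The log2 fold changes were -0.99 (SE 0.069, adjusted p = 3.07e-09) and -0.87 (SE 0.069, adjusted p = 3.29e-08). Normalised counts of osteoblast lineage markers summed to 119968 to 160197 in log phase scrMo and 192122 to 226717 in log phase DkkMo. In log phase NT they summed to 247497 to 279488. These sums stood in the same order, scrMo lowest and NT highest, as the group means of Nid2, Fn1 and Hspg2. Spp1 made up most of each sum, and among these markers only Spp1 and Col1a2 had that order. The group means of Col1a1, Sparc, Twist1, Alpl and Bglap were instead highest in log phase DkkMo. That of Runx2 was highest in log phase scrMo. Under stress these sums were 64938 to 87967 over the 3 treatments. Smooth muscle markers (3 of 5 in the table) summed to 494 to 908 in log phase scrMo, 1027 to 1470 in log phase NT and 3159 to 4091 in log phase DkkMo, and chondrocyte markers (2 of 5) to 4533 to 7032 in log phase and 5856 to 9267 under stress. Acta2 made up most of the smooth muscle difference, at group means of 444, 996 and 3416 in log phase scrMo, NT and DkkMo, beside 152, 138 and 169.6 for Des and 64.4, 47.7 and 71.2 for Tagln. Whether these markers have a part in the matrix differences was not tested.

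**Figure D4:**
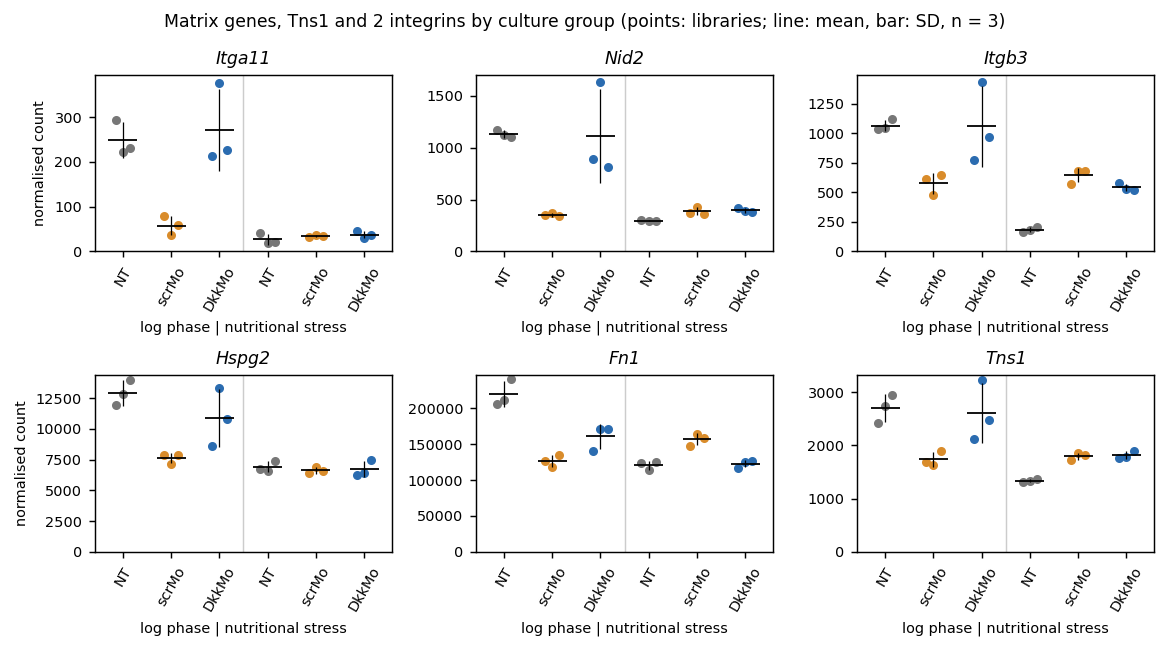
Normalised counts of 6 members (one panel each, axis from 0) in the 6 culture groups; points are libraries, horizontal lines group means and vertical bars SD (n = 3). In log phase the scrMo libraries lie below all NT and DkkMo libraries for Itga11, Nid2, Itgb3, Hspg2, Fn1 and Tns1.

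Of the 4 syndecans, transmembrane proteoglycans that bind matrix beside integrins, 3 were lower under stress in every treatment. Sdc3 was counted 2253, 2281 and 2476 in NT, 2331, 1762 and 2225 in scrMo and 2535, 4603 and 2787 in DkkMo in log phase. In stressed cultures the counts were 914, 844 and 874 in NT, 581, 528 and 543 in scrMo and 739.6, 618 and 543 in DkkMo. No stressed library reached a log phase library, and stressed means were 0.375, 0.261 and 0.191 times those of log phase in NT, scrMo and DkkMo. The log2 fold changes were -1.19 (SE 0.14, adjusted p = 3.74e-07), -1.54 (SE 0.14, adjusted p = 2.17e-08) and -1.96 (SE 0.14, adjusted p = 4.29e-10). Sdc2 had counts of 5399, 5602 and 5862 in NT, 4049.8, 3855 and 4281 in scrMo and 4667, 6986 and 5183 in DkkMo in log phase. Stressed counts of Sdc2 were 1907, 1880.0 and 1791 in NT, 1856, 1873 and 1760.1 in scrMo and 1696, 1809.6 and 1706 in DkkMo. The stressed groups overlapped one another and lay below log phase, at -1.46 (SE 0.090, adjusted p = 4.39e-11) in NT, -1.04 (SE 0.090, adjusted p = 1.24e-08) in scrMo and -1.53 (SE 0.090, adjusted p = 3.45e-11) in DkkMo.

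Sdc4, the syndecan found in focal adhesions, had counts of 6811, 6739 and 7000.4 in NT, 6870.2, 3867 and 5569 in scrMo and 6924, 6983 and 6741 in DkkMo in log phase. Its stressed counts were 3777, 3939 and 3706 in NT, 2533, 2378 and 2512 in scrMo and 3041, 3049 and 2997 in DkkMo. Replicate 2 of log phase scrMo, at 3867, lay inside the range of stressed NT, and all other log phase libraries lay above the stressed ones. The changes were -0.80 (SE 0.11, adjusted p = 4.26e-06) in NT, -1.02 (SE 0.11, adjusted p = 3.42e-07) in scrMo and -1.11 (SE 0.11, adjusted p = 6.31e-08) in DkkMo. Sdc1 had group means of 7883 to 10422 and was not called.

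Among the linkers, the parvins behaved differently from one another. Parvg (chromosome 15, 84324026 to 84342978, plus strand), the parvin of blood cells, was counted 69.3, 61.9 and 65 in NT, 83.6, 109 and 84.2 in scrMo and 93.1, 89.4 and 84.4 in DkkMo in log phase. Stressed libraries held 491, 641 and 517 in NT, 201, 136 and 138 in scrMo and 717, 771 and 703 in DkkMo. Stressed NT and DkkMo libraries lay above all others, and stressed scrMo lay between them and log phase. DkkMo was 4.62 times scrMo under stress, at 1.34 (SE 0.073, adjusted p = 2.63e-10), and scrMo was 0.288 times NT, at -1.04 (SE 0.073, adjusted p = 3.1e-09). Stress gave 1.53 (SE 0.073, adjusted p = 1.31e-12) in NT, 1.67 (SE 0.073, adjusted p = 6.96e-13) in DkkMo and 0.32 (SE 0.073, adjusted p = 0.00101) in scrMo, the last short of the fold threshold and 0.74 (adjusted p = 0.00145) with limma voom. The leukocyte marker list, with 6 of 11 genes in the table, summed to 2177 to 2467 in stressed NT, 2211 to 2270 in stressed scrMo and 2208 to 2296 in stressed DkkMo. These sums overlapped between the stressed groups in which Parvg differed, and in log phase they were 1128 to 2075. Cd68 and Csf1r made up most of the group means. Ptprc was at group means of 4.89, 5.46 and 15.1 in stressed NT, scrMo and DkkMo, at 0.18 (adjusted p = 0.0336) for DkkMo against scrMo. That was the direction of Parvg, while stressed NT, where Parvg was high, had the lowest Ptprc. Coro1a went the other way, at 37.9 in stressed scrMo and 20.6 in stressed DkkMo. Of the 6 genes, 2 were higher and 1 lower in this comparison at an unadjusted p under 0.05 in limma, with a list median of -0.0076. The part of these markers in the Parvg difference was not tested.

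Parvb lies 8.3 kb from Parvg on the same strand and had another pattern. It was counted 8448, 8765 and 9222 in NT, 10981, 9968 and 10313 in scrMo and 8042, 7356 and 8229.8 in DkkMo in log phase. After stress, counts were 11696, 11863 and 11711 in NT, 6941, 6350.1 and 6562 in scrMo and 6501, 6293 and 6352 in DkkMo. Stressed NT lay above all other libraries. Both stressed morpholino groups lay below every other library, at -0.80 (SE 0.053, adjusted p = 1.54e-09) for scrMo and -0.85 (SE 0.053, adjusted p = 1.6e-09) for DkkMo against NT. Parva, the widely expressed parvin, was lower under stress in NT (-0.96) and DkkMo (-0.96), with group means of 3016 to 6657. In scrMo the change was -0.49 (SE 0.066, adjusted p = 3.61e-06), short of the fold threshold.

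The PINCH proteins Lims1 and Lims2 were both higher in stressed than in log phase NT. Lims1 was counted 4043, 3792 and 3799 in NT, 3290.4, 3863 and 4024 in scrMo and 3762, 4691 and 4716 in DkkMo in log phase. In the stressed groups counts were 6471, 6111 and 6412 in NT, 5897, 5911 and 5634 in scrMo and 5746, 6361 and 6412 in DkkMo. All stressed libraries lay above all log phase libraries, with 0.67 (SE 0.076, adjusted p = 2.58e-07) in NT, 0.61 (SE 0.076, adjusted p = 1.5e-06) in scrMo and 0.47 (SE 0.076, adjusted p = 2.28e-05) in DkkMo, the last short of the fold threshold. Without log phase scrMo replicate 1 the scrMo change was 0.53, also short of it. Lims2 was counted 98.6, 125 and 109 in NT, 242, 200.3 and 163 in scrMo and 216, 169.8 and 219 in DkkMo in log phase. With stress, counts were 508, 705 and 589 in NT, 249.5, 252 and 223 in scrMo and 271, 257 and 288 in DkkMo. Log phase NT was the lowest group and stressed NT the highest, 5.42 times as high, at 1.34 (SE 0.080, adjusted p = 2.49e-11). Under stress scrMo lay below NT, at -0.82 (SE 0.080, adjusted p = 1.76e-07), and so did DkkMo, at -0.72 (SE 0.080, adjusted p = 1.31e-06).

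Ilk, the pseudokinase at the centre of the trimer, was counted 5037, 5018 and 5264 in NT, 5026, 3863 and 4288 in scrMo and 5961, 5745 and 5075 in DkkMo in log phase. In stressed cultures the counts were 5099, 5363 and 4967 in NT, 3330.3, 3467 and 3427 in scrMo and 3376, 2979 and 2891 in DkkMo. Stressed NT lay in the range of log phase, and both stressed morpholino groups lay below all others, at -0.69 (SE 0.076, adjusted p = 1.27e-06) for DkkMo and -0.56 (SE 0.076, adjusted p = 9.28e-06) for scrMo against NT, of which limma called the first and limma voom also the second, at -0.59 (adjusted p = 1e-05). Taf10, on the opposite strand, covers 76.7% of the exon bases of Ilk, and since the strandedness of counting is not given in the sources used here, reads of the 2 genes cannot be told apart. The talins Tln1 and Tln2 and the kindlin Fermt2 had group means of 13063 to 15158, 502 to 704 and 2166 to 2886, and none was called in the 9 comparisons.

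Among signalling and scaffold genes, Pxn (paxillin) was counted 4264, 4134 and 4101 in NT, 5537, 4674 and 5106 in scrMo and 4216, 3873 and 4223 in DkkMo in log phase. Stressed libraries held 6189.7, 6144 and 6255 in NT, 3193, 3009.6 and 3006 in scrMo and 3857, 3616 and 3916 in DkkMo. Stressed NT lay above all other libraries and the stressed morpholino groups below nearly all of log phase, stressed DkkMo replicate 3 at 3916 being above log phase DkkMo replicate 2 at 3873. Against stressed NT, scrMo was at -0.95 (SE 0.055, adjusted p = 2.21e-10) and DkkMo at -0.67 (SE 0.055, adjusted p = 4.91e-08). Tns3, a tensin, was counted 13897, 14477 and 14705 in NT, 13224, 13826 and 16646 in scrMo and 13112, 15362 and 16399.6 in DkkMo in log phase. After stress, counts were 10974, 10849.6 and 11574 in NT, 7599, 7873 and 7740.0 in scrMo and 8447, 8237 and 8207 in DkkMo. The stressed libraries lay below all log phase libraries, and the change was -0.36 (adjusted p = 0.000418) in NT, -0.88 (SE 0.077, adjusted p = 1.38e-08) in scrMo and -0.82 (SE 0.077, adjusted p = 1.9e-08) in DkkMo, of which the morpholino groups were called. Tns1 had group means of 1335 to 2702 and was called lower under stress in NT only (-0.88). Ptk2, focal adhesion kinase, had group means of 3856 to 4858 and no call.

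Whether DkkMo acted differently under stress than in log phase was tested as a difference of differences. Relative to scrMo, 2 members were higher and 4 lower (all genes 0.869% and 2.83%), and the split was 4 and 4 with median centring and 3 and 3 with quantile normalization. Parvg (1.36 (SE 0.10, adjusted p = 7.07e-08)) and Itgb7 (0.70 (SE 0.088, adjusted p = 2.36e-05)) were higher, and Nid2, Itga11, Itgb3 and Fn1 lower, the first at -1.12 (SE 0.18, adjusted p = 0.000278). For Nid2 and Itga11 the DkkMo and scrMo counts lay apart in log phase and overlapped under stress. The count was 12 without log phase DkkMo replicate 1. Relative to NT, 2 were higher and 9 lower (all genes 1.53% and 2.38%). Itgb3 (0.96 (SE 0.17, adjusted p = 0.00045)) and Lama5 (0.62 (SE 0.10, adjusted p = 0.000234)) were higher, and Lims2 (-1.11 (SE 0.11, adjusted p = 2.12e-06)), Itga5 (-0.93 (SE 0.11, adjusted p = 6.86e-06)) and Itgb7 (-0.88 (SE 0.088, adjusted p = 2.03e-06)) led those that were lower. Of these genes, all but Lama5 were also called by limma for scrMo against NT under stress, in the direction of DkkMo. Lama5 was at 0.56 for scrMo and 0.49 for DkkMo against NT under stress, both short of the fold threshold. Limma voom called both, at 0.71 (adjusted p = 4.1e-06) and 0.63 (adjusted p = 2.76e-05). A difference of differences for scrMo relative to NT was not tested. The difference of Lama5 was 0.57 without log phase NT replicate 3 and 0.53 without log phase DkkMo replicate 1, both short of the fold threshold, and that of Itgb7 was -0.46 with quantile normalization, also short of it.

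Further genes of these pathways were read from the same fit, from lists written with earlier results known. Of 40 other focal adhesion genes tested, 1 was higher (Vcl, vinculin, 0.61) and 1 lower (Tes, -0.70) for DkkMo against scrMo in log phase (all genes 1.66% and 0.308%), and 0 in either direction under stress with limma or limma voom. At an unadjusted p under 0.05 in limma 6 were higher and 6 lower under stress, and the list's median was 0.0067 beside 0.0016 over all genes. Without log phase DkkMo replicate 2, or scrMo replicate 2, the log phase count was 1, and without stressed scrMo replicate 1 the stress count was 1. Zyx (zyxin), at -0.52 (SE 0.069, adjusted p = 3.02e-05), missed the fold threshold there. For DkkMo against NT under stress 1 was higher and 3 were lower (Zyx, Bcar1 and Cav1; all genes 1.12% and 1.54%), and for scrMo against NT 1 was higher and 3 were lower (Bcar1, Cav1 and Tes; all genes 1.9% and 2.54%). Stress against log phase gave 6 higher and 4 lower in NT (all genes 8.22% and 9.9%), 2 and 2 in scrMo (4.38% and 6.28%) and 5 and 8 in DkkMo (6.24% and 10.2%).

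Of 24 other matrix ligands and receptors tested, 6 were higher and 0 lower for DkkMo against scrMo in log phase (Thbs1, Ccn1, Fbln1, Fbln5, Efemp2 and Emilin1; all genes 1.66% and 0.308%), with a median of 0.35 beside 0.0048 over all genes. At an unadjusted p under 0.05 in limma 1 was lower, and with limma voom 9 were higher and 0 lower. Without log phase DkkMo replicate 2, or without log phase scrMo replicate 2, 3 were called. Thbs1, thrombospondin 1, was counted 10177, 7495 and 10247 in log phase scrMo and 19452, 39390.1 and 24941 in log phase DkkMo, at 1.51 (SE 0.16, adjusted p = 3.14e-06). For scrMo against NT in log phase, 1 was higher and 9 were lower (all genes 0.592% and 1.85%), with a median of -0.44 beside -0.0014. DkkMo against NT in log phase gave 2 higher (Thbs1 and Ccn2) and 2 lower (Agrn and Tgfbi; all genes 0.513% and 0.314%), with a median of 0.054 beside 0.0053. At an unadjusted p under 0.05 in limma 4 were higher and 7 lower in that comparison. Under stress against log phase, 0 were higher and 14 lower in NT (all genes 8.22% and 9.9%), 0 and 11 in scrMo (4.38% and 6.28%), and 0 and 15 in DkkMo (6.24% and 10.2%). In limma 4, 3 and 1 were higher at an unadjusted p under 0.05, and limma voom called 2, 1 and 1 higher. Spp1, osteopontin, a ligand of the receptor that contains beta 3, was counted 90890.3 to 214487 times in log phase and 49248 to 68830.2 under stress, called lower in each treatment.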

How the data were processed

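RNA of 18 cultures was described here, 3 libraries in each of 6 groups taken from the sample labels. According to the labels and methods, the authors aligned reads to GRCm38 with HISAT2 2.1.0, counted them per gene with featureCounts (Subread 2.0.0) and deposited variance-stabilised log2 values made with DESeq2; strandedness was not given in the sources used here. The transformation was inverted, and 100% of values under 10000 reads came out whole within 0.05. The lowest value, 7.198, stands for no reads. The last 14 rows, which spanned more than 6 within a group, were set aside (among them Itgb1bp1), and 16562 genes were tested in limma 3.58.1 (R 4.3.3) with 6 group means, all 18 libraries, a variance trend and Benjamini-Hochberg adjustment. DE meant an adjusted p below 0.05 and over 1.5-fold. Genes above the lowest value in at least 3 libraries were kept. The members and all gene lists were chosen with earlier results of these data known. Members were named in full if, in a comparison, they were among the 5 largest called rises or falls with groups that did not overlap. The results of 2 genes are not reported here, although the fit and all counts include them. The code was tested on simulated data. Genome positions and exon lengths are from GENCODE vM21, promoters from RefSeq.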

Additional observations from a re-analysis of the deposited data

Results flagged for a closer look

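The effect of DkkMo relative to scrMo differed between nutritional stress and log phase for 6 members, tested as an interaction in the limma fit and given as stress minus log phase on the log2 scale. The difference was 1.36 for Parvg, 0.70 for Itgb7, -1.12 for Nid2, -0.91 for Itga11, -0.81 for Itgb3 (adjusted p = 0.00202) and -0.70 for Fn1 (adjusted p = 0.00098). Stressed DkkMo libraries lay above stressed scrMo libraries for Parvg and Itgb7. For Fn1 they lay below them, the reverse of log phase. With quantile normalization the Fn1 difference was -0.39 (adjusted p = 0.133), which ends that call.

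The effect of DkkMo relative to NT differed between the conditions for 11 members by the same test. It was 0.96 for Itgb3 and 0.62 for Lama5. Of the lower ones, 8 were given here: -1.11 for Lims2, -0.93 for Itga5, -0.88 for Itgb7, -0.81 for Ilk, -0.77 for Sdc3, -0.72 for Tnc, -0.70 for Parvb and -0.65 for Pxn. The largest adjusted p was 0.00695, for Sdc3, and without log phase DkkMo replicate 2 its difference was -0.53, short of the fold threshold, as was that of Itgb7 with quantile normalization, at -0.46. Under stress, limma also called scrMo against NT for Itgb3, Lims2, Itga5, Itgb7, Tnc, Parvb and Pxn, each in the direction of DkkMo against NT. It did not call scrMo against NT there for Lama5, Ilk and Sdc3, nor DkkMo against NT for Lama5 and Sdc3. Limma voom called scrMo against NT under stress for Lama5, at 0.71 (adjusted p = 4.1e-06), and Ilk, at -0.59 (adjusted p = 1e-05). It also called Sdc3, at -0.68 (adjusted p = 0.00726). The same difference between conditions was not tested for scrMo relative to NT. Groups of 3 libraries were too small for a search for single outlying libraries.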

How the results depend on the processing

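Direction was kept in all alternatives run for named members: 978 values stayed on their side of the thresholds, 11 fell below and 0 reversed. Those that fell below were Itgb3 for DkkMo against scrMo and for scrMo against NT in log phase, Fn1 for scrMo against NT (quantile normalization), Lims1 for stress in scrMo, and the differences of Fn1, Lama5, Itgb7 and Sdc3, and only that of Fn1 with quantile normalization, -0.39, lost its adjusted p (0.133). Counts of members called follow in the order DkkMo against scrMo in log phase and under stress, DkkMo against NT likewise, scrMo against NT likewise, stress against log phase in NT, scrMo and DkkMo, and the differences relative to scrMo and to NT. They were 3, 1, 0, 8, 5, 9, 19, 13, 15, 6 and 11 as reported. Without a fold threshold they were 26, 11, 7, 26, 28, 25, 33, 35, 35, 19 and 19, and at 2-fold 1, 1, 0, 1, 1, 4, 8, 4, 7, 2 and 1. With limma voom on recovered reads they were 7, 4, 3, 12, 12, 16, 21, 18, 21, 11 and 13, on log2(normalised count + 1) 7, 3, 3, 12, 12, 16, 21, 19, 21, 10 and 12, and among genes above the median mean, where 33 members were tested, 1, 0, 0, 6, 3, 6, 15, 12, 12, 3 and 9. Leaving out 1 library at a time gave 2 to 7, 1 to 1, 0 to 1, 8 to 8, 5 to 7, 9 to 11, 19 to 20, 11 to 13, 14 to 16, 6 to 12 and 10 to 11. Replicate numbers did not pair the libraries throughout, and in no comparison did every library correlate best with its own number. For DkkMo and scrMo in log phase, correlations of same-numbered deviations ran from -0.0487 to 0.624, with a mean of 0.382. There 2 libraries correlated best with their own number, so a pairing of these groups is neither shown nor excluded. With the replicate number as a replicate block, the 7 comparisons that allowed it gave 3, 1, 0, 5, 13, 15 and 6 called, as without it. No paired analysis was possible for comparisons with stressed NT because 2 of its titles carry the same number. Depth limited Lama4, Lama3 and Itga9, which had few reads.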

Other observations

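Integrin genes outside the 45 members came from a list of chains known from leukocytes and platelets, of which 4 were tested. Itga2b, the platelet partner of beta 3, was counted 709.6 to 902 times per library in log phase and 929 to 1199.6 under stress, with stress changes of 0.39 (SE 0.066, adjusted p = 3.68e-05) in NT, 0.34 (SE 0.066, adjusted p = 0.00019) in scrMo and 0.21 (SE 0.066, adjusted p = 0.0103) in DkkMo, none past the fold threshold. Itgbl1, an integrin beta-like gene, was counted 264, 269.9 and 308 in log phase NT, 94.8, 77.6 and 93.2 in log phase scrMo and 136, 202 and 142 in log phase DkkMo. Under stress its 9 libraries ranged from 24.5 to 66.4. It fell under stress in NT, at -1.21 (SE 0.070, adjusted p = 1.88e-11), and was lower in scrMo than in NT in log phase, at -0.77 (SE 0.070, adjusted p = 2.33e-07). Itgad was counted 2.03 to 10.1 times in log phase and 8.91 to 35.7 under stress, without a call, and Itgae 4.86 to 17.9 times over all libraries.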
